A study of Bos taurus with 47 samples.

Results

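Of the 24616 gene identifiers measured in Holstein cattle, 150 were enriched in circulating lymphocytes. They were chosen by their FPKM values (fragments per kilobase of transcript, scaled to the fragments of the library): at least 1 FPKM in the lymphocyte library, and a value there no less than 4-fold above each of the other label means. That is 1.32% of the 11328 identifiers at 1 FPKM or more in lymphocytes. Since the rule used these values, the excess in lymphocytes is a description and was not tested. There is 1 lymphocyte library matched to a sample, from a male that gave none of the other tissues analysed here, so its level has no replicate check here and its biological state cannot be told apart from the library.

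The study compared transcriptomes across tissues, with 47 RNA sequencing libraries under 15 labels. Spleen, ileum, lung, liver, kidney, rumen, heart, skeletal muscle, fat and frontal cortex were each taken from all of 4 animals: 2 males, called male A and male B here, and 2 females, which are told apart here as the lactating cow and the dry cow because each gave 1 mammary gland at that stage. Both cows also gave ovary and uterus. No treatment is labelled, and the ages of the animals and the way the lymphocytes were isolated are not given in the sources used here.

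Lymphocytes are the T cells, B cells and natural killer cells that recirculate between blood, lymph and the lymphoid organs. The spleen filters blood and packs lymphocytes into its white pulp, and the ileum carries Peyer's patches, the lymphoid follicles of the gut wall. In bulk tissue, fewer lymphocytes and less RNA per lymphocyte cannot be told apart. The identifiers were not matched to gene names here, so neither the lymphocyte label nor the members could be checked against marker genes of T cells, B cells, monocytes, neutrophils or platelets, and members are called by their rank of lymphocyte FPKM.

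The lymphocyte library summed to 670548 FPKM, within the range of 576130 to 964931 over all libraries. In it, 59 identifiers that had 1 FPKM or more in each other library were listed at 0. Genes restricted to liver or rumen appeared as traces (at least 61.0 and 79.6 parts in 1000000 of their level there) in 37 libraries, and at no more than 33.3 and 6.51 such parts in 10 libraries, namely that of lymphocytes and 9 of the lactating cow. Compared with those 9 libraries alone, which leaves fewer labels to exceed, 195 identifiers met the rule, 111 of the 150 members among them. Without those 9 it was 130, with 123 of the members. Whether the 10 were handled as a batch was not tested, as the labels name none.

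The members covered a wide range of levels. In the lymphocyte library, 31 had 100 FPKM or more, 36 had 10 to under 100 and 83 had under 10, with a median of 7.29 FPKM and a range of 1.02 to 904. The 67 abundant members (10 FPKM or more) held 96.8% of the members' summed FPKM, and the top 10 held 47.9%. Together the 150 held 1.45% of all FPKM in the lymphocyte library. The median ratio to the second highest label was 5.26, and 25 members reached a ratio of 8. These leading ratios lay mostly in the low group, with 18 of the 25. The largest ratio, 61.5, belonged to a member with 1.11 FPKM in lymphocytes that was at 0 in 45 of the 46 other libraries.

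**Figure D1:**
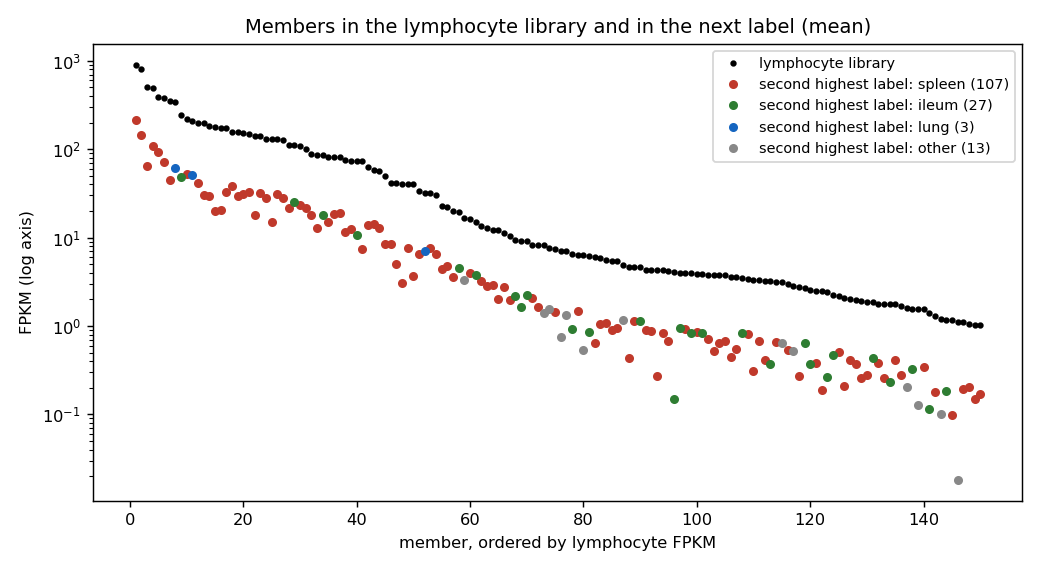
Each of the 150 members is placed by its rank (x axis), with its FPKM on a log axis: black points are the single lymphocyte library and coloured points the mean of the second highest label. Spleen is the second highest label for 107 members, ileum for 27, lung for 3 and another label for 13.

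Spleen was the second highest label for 107 members and ileum for 27. Lung took that place for 3 members, the dry mammary gland for 4, frontal cortex for 3, uterus for 2, and adipose tissue, liver, rumen and muscle for 1 each. All 67 abundant members had spleen among the first 2 labels after lymphocytes, as did 68 of the 83 low members. Labels other than spleen, ileum and lung came second for 1 abundant and 12 low members.

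Spleen held a median of 17.8% of a member's lymphocyte level (quartiles 12.6% and 21.2%), ileum 10.9% (4.93% and 16.1%) and lung 5.59% (2.75% and 10.1%). The rule limits each to 25%. Among abundant members the medians were 19.3% in spleen, 11.6% in ileum and 9.33% in lung. The low members had 15.2%, 10.2% and 3.68%, on a median of 0.44 FPKM in spleen, 0.33 in ileum and 0.11 in lung. For 68 low members no other label reached a mean of 1 FPKM, and 57 low members were at 0 in 30 or more of the other 46 libraries, against 1 abundant member. An exact 0 in such a table can be a failed estimate.

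**Figure D2:**
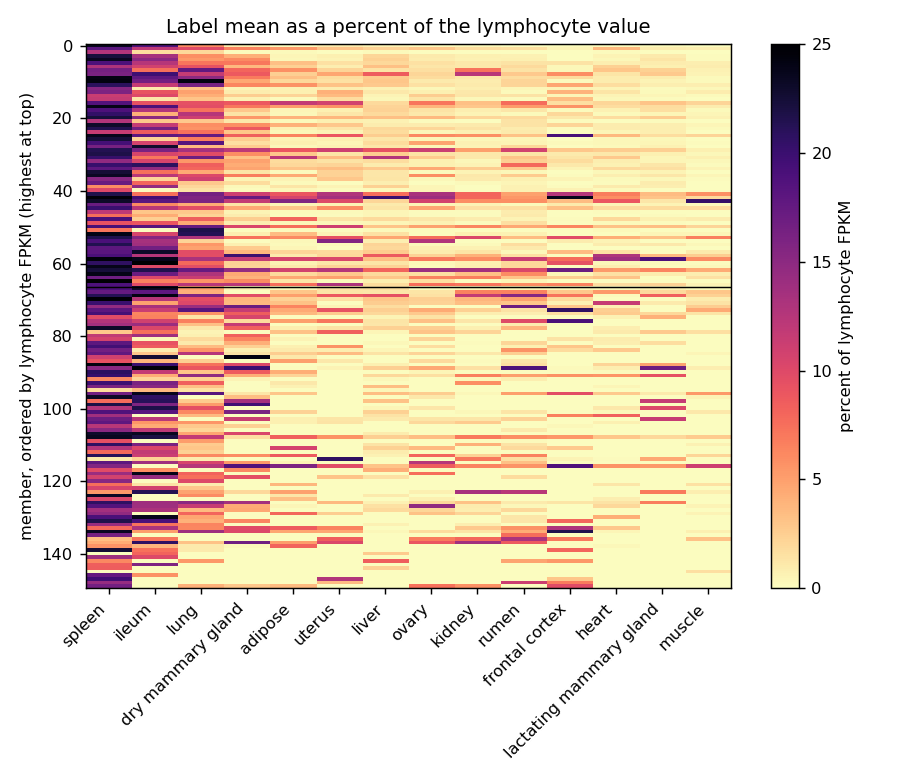
Each row is a member, ordered by lymphocyte FPKM, each column a label, and the colour is the label mean as a percent of the lymphocyte value (0 to 25%). The black line separates the 67 members at 10 FPKM or more from the 83 below; the spleen and ileum columns are the darkest, and paler rows below the line are mostly at or near 0 outside spleen and ileum.

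The comparison with spleen and ileum set the size of the group. Without the spleen comparison 285 identifiers would meet the rule, without ileum 182, and without both 518. Of the added ones, 29 had a higher mean in spleen than in lymphocytes and 22 a higher mean in ileum. Just inside the ratio threshold stood a member with 11.2 FPKM in lymphocytes and 2.79 in spleen (ratio 4.01), one with 15.0 and 3.74 in ileum (4.02) and one with 8.27 and 2.05 in spleen (4.04). Just outside were identifiers with 192 and 48.2 (3.99), 5.63 and 1.41 (3.99) and 8.52 and 2.14 FPKM (3.98), all against spleen. There were 65 members with a ratio from 4 to under 5 and 137 identifiers from 3 to under 4.

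Single libraries came closer to lymphocytes than label means did. With at most 4 libraries per label, the rule itself keeps any such library from exceeding the lymphocyte value of a member. Only 40 members stood at 4 times the highest single library. The median ratio to that library was 3.23, and the lowest was 1.17, for a member with 2.22 FPKM in lymphocytes and 1.89 FPKM in the ileum of male A. This member was at 0 in the other 3 ileum libraries.

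Summed over the members, FPKM ordered the labels with lymphoid tissue first. The sum was 9690 in lymphocytes. In spleen it was 2021, 1757, 1811 and 1659 in male A, male B, the lactating cow and the dry cow, an order kept in the values that follow. In ileum it was 1567, 1252, 630.3 and 1101. In lung it was 802.7, 839.8, 931.5 and 778.9. All spleen libraries lay above all ileum libraries, while the ileum library of the lactating cow lay below every lung library. The dry gland stood at 432.2 and the lactating gland at 98.55, with no replicate of either. Labels from adipose tissue (mean 256 ± 37.0, SD, n = 4) down to heart (131 ± 41.2, n = 4) had ranges that overlapped with that of the next label, and muscle was lowest of all labels (63.9 ± 4.54, n = 4). FPKM is relative to a library's total, and between the glands stage, cow and library cannot be told apart.

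**Figure D3:**
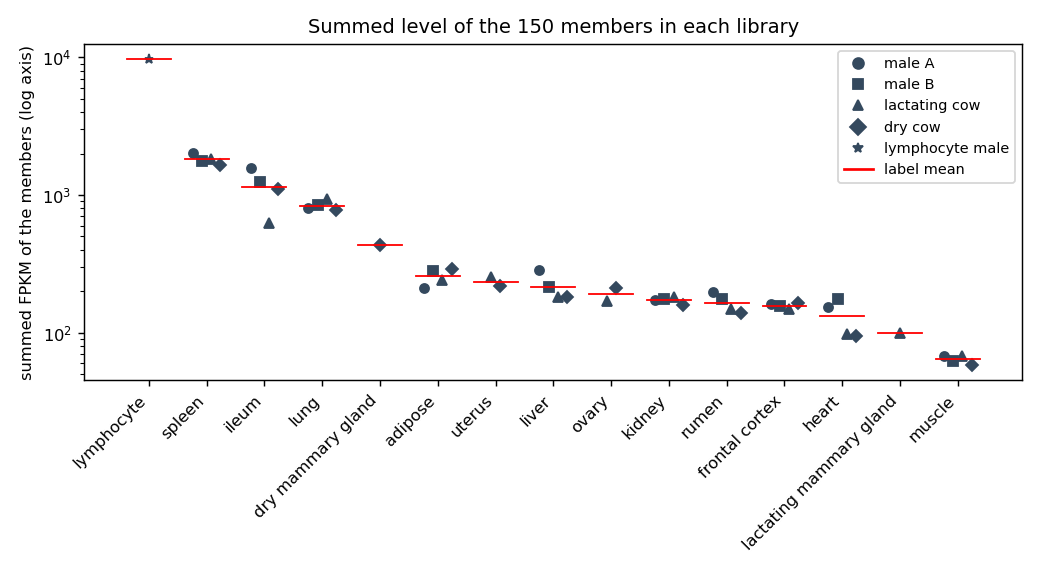
Summed FPKM of the 150 members in each of the 47 libraries (log y axis), by label, with a marker shape for each animal and a red line at the label mean. The lymphocyte library is at 9690, spleen between 1659 and 2021, and the ileum library of the lactating cow is at 630.3, below the other 3 ileum libraries.

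At least 1 FPKM was reached by 81.8 ± 6.99 members in spleen (SD, n = 4), 72.5 ± 8.58 in ileum, 63.3 ± 1.71 in lung and 14.5 ± 1.73 in muscle.

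The most abundant member, ENSBTAG00000001882, had 904 FPKM in lymphocytes. In spleen it had 199.3, 228.0, 251.6 and 171.5 FPKM in male A, male B, the lactating cow and the dry cow. In ileum the same animals had 306.8, 282.8, 27.7 and 58.2 FPKM. The ileum values of both males thus lay above every spleen value, and those of both cows below every one. In lung they had 32.04, 32.8, 122.6 and 34.7 FPKM, so the lactating cow was highest in lung and lowest in ileum. In muscle the mean was 0.21 FPKM. The second member had 805 FPKM in lymphocytes and was steadier, with 145 ± 8.83 FPKM in spleen, 95.9 ± 29.9 in ileum and 80.1 ± 18.5 in lung (SD, n = 4 each). The third, with 507 FPKM, was more uneven among tissues: 64.6 ± 27.2 FPKM in spleen, 8.73 ± 2.55 in ileum and 9.91 ± 3.29 in lung.

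The seventh member, ENSBTAG00000020116, with 351 FPKM in lymphocytes, differed more between animals than between lymphoid tissues. It is described here because its values stood out. In spleen it had 108.9 FPKM in male A, 4.70 in male B, 30.6 in the lactating cow and 36.8 in the dry cow. In ileum the values were 83.1, 2.92, 37.4 and 28.5 FPKM, and in lung 74.96, 3.55, 34.0 and 18.6. Male A was highest and male B lowest in all 10 tissues that the 4 animals share. In the other tissues the levels were lower with the same highest and lowest animal, for example 37.97, 0.742, 3.76 and 3.40 FPKM in liver. Among 63 members with a mean of 1 FPKM or more in spleen, ileum and lung, it was the one in which an animal stood at least 2-fold apart from the other 3, on the same side, in all 3 tissues. That is 1.59% of these members, against 41 of 11764 other identifiers (0.349%), and with 1 member nothing particular to the group can be read from it.

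**Figure D4:**
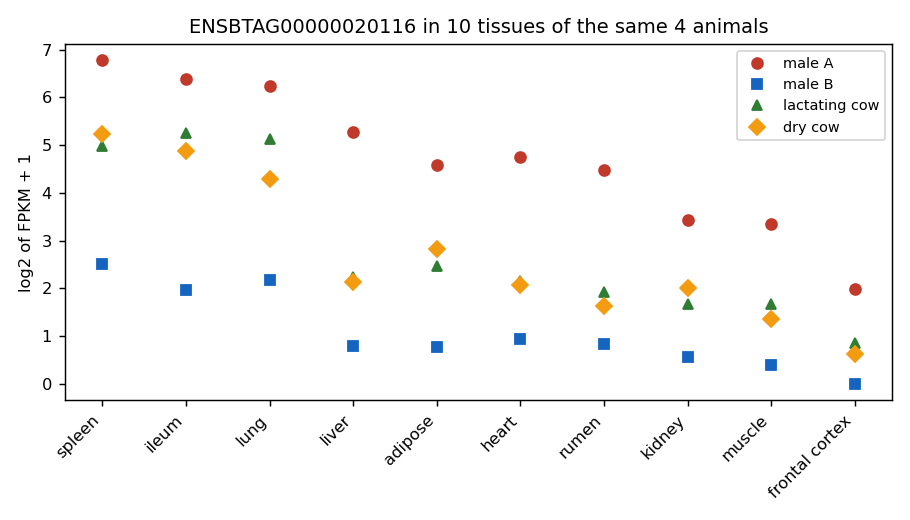
Level of ENSBTAG00000020116 on the log2(FPKM + 1) scale in the 10 tissues shared by male A, male B, the lactating cow and the dry cow, 1 point per library. Male A is the top point and male B the bottom point in each tissue.

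Spleen and ileum were compared directly, on 8 libraries. The rule had used the means of both, holding each to 25% of the lymphocyte value, so the counts over members that follow are a description, and nothing is read from their distance to the shares of all genes. The difference was tested on log2(FPKM + 1), which understates changes of low genes, with limma and Benjamini-Hochberg adjustment over all genes. A call needed an adjusted p under 0.05 and a difference of at least 1. Of the members, 96 passed the filter of 1 FPKM in at least 2 libraries (all 67 abundant and 29 low ones), and 54 were too low to be tested. Spleen was higher for 18 members, against 6.63% of the 14194 genes tested, and ileum for 1, against 14.4%. The members' median difference was 0.46 and that of all genes -0.06, and 85 of the 96 had a higher mean log2 value in spleen, against 45.7% of all genes. The 29 low members among them had to reach 1 FPKM in some of these libraries to be tested. All 19 called members were abundant ones. In 29 members every spleen library lay above every ileum library (14.8% of all genes), and in 0 members the reverse (24% of all genes).

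The largest difference was that of the 13th member. It had 38.6, 31.4, 28.3 and 22.8 FPKM in spleen and 2.55, 2.53, 1.46 and 1.58 in ileum in male A, male B, the lactating cow and the dry cow, a difference of 3.36 ± 0.21 (SE, limma adjusted p = 4.61e-06). The 27th member, with 28.2 ± 4.45 FPKM in spleen and 2.84 ± 1.55 in ileum (SD, n = 4), differed by 3.02 ± 0.30 (limma adjusted p = 8.15e-05). The 41st member had 7.37 ± 2.17 FPKM in spleen and was listed between 0 and 0.112 FPKM in the 4 ileum libraries (2.97 ± 0.20, limma adjusted p = 8.13e-06). In all 3, every spleen library lay above every ileum library.

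ENSBTAG00000029982, the 40th member with 73.7 FPKM in lymphocytes, was the one called higher in ileum. It had 12.6, 10.4, 6.77 and 13.3 FPKM in ileum and 3.29, 9.85, 2.16 and 2.06 in spleen, in the same order of animals. The groups overlap through the spleen of male B, and the difference of -1.31 ± 0.40 (SE, limma adjusted p = 0.0297) lost its call without male A, the lactating cow or the dry cow. The most abundant member, with 0.94 ± 0.70, did not pass (limma adjusted p = 0.332). After quantile normalization the median over all genes went from -0.06 to 0.15 and gave 28 members higher in spleen, against 9.56% of all genes.

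**Figure D5:**
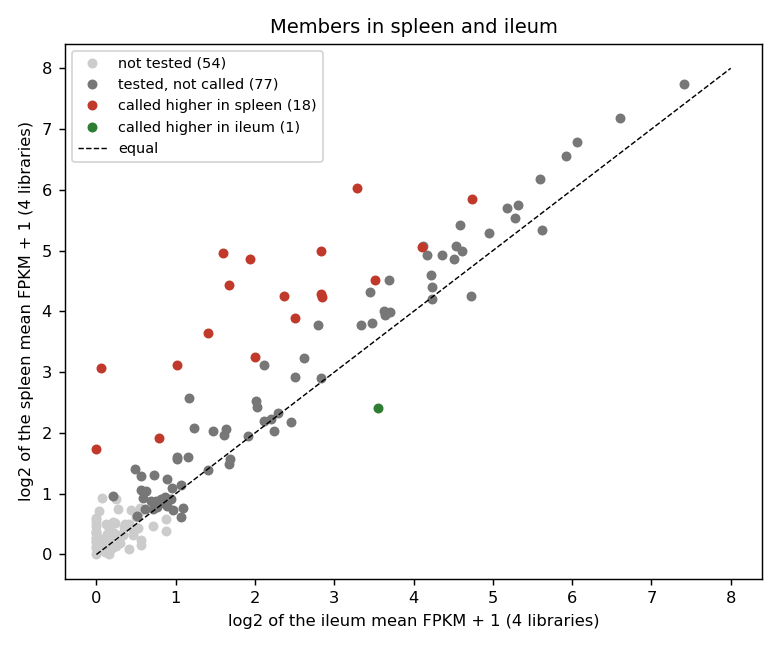
Each point is a member, with log2 of its mean FPKM + 1 over 4 ileum libraries (x) and over 4 spleen libraries (y); the dashed line marks equal levels. Red points (18) were called higher in spleen and the green point (1) higher in ileum, and 54 pale points were too low to be tested.

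Each of these organs was also set against the unweighted mean of the other 13 labels, with the lymphocyte library left out. The rule had capped the mean of each of these labels too, so these counts are likewise a description. The fit (46 libraries, limma, 16586 genes, adjusted p under 0.05 and a difference of at least 2) treated each library as independent. Each gene had 1 estimate of the spread over all 14 labels, so an SE here is not that of spleen or ileum alone. Spleen was higher for 40 of the 96 members tested, against 5.81% of all genes, and lower for 0, with 0 at an unadjusted p under 0.05 (1.51% of all genes were called lower). The median difference was 1.60 among members and 0.20 among all genes. Ileum was higher for 18 members, against 6.99% of all genes, and lower for 0 (0.223% of all genes), with 1 lower at an unadjusted p under 0.05. Its median was 0.89, and 0.32 among all genes. Of the 18, 17 were also among the 40 of spleen. All 58 calls were of abundant members.

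The most abundant member was 5.44 ± 0.44 above the other labels in spleen (SE, limma adjusted p = 1.95e-13) and 4.43 ± 0.44 in ileum (limma adjusted p = 4.28e-11). The third was 5.04 ± 0.21 higher in spleen (limma adjusted p = 1.17e-21), and the fourth 4.10 ± 0.19 (limma adjusted p = 3.37e-20). In ileum the 29th member followed, with 3.47 ± 0.13 (limma adjusted p = 8.34e-23) on values of 35.1, 19.3, 14.0 and 33.2 FPKM. With a pseudocount of 0.1 the calls were 74 in spleen and 49 in ileum, against 10.8% and 12.7% of all genes. Quantile normalization left 9 in ileum, against 4.54%.

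Males and females were compared in spleen and ileum, with 2 animals of each sex. The fit used the 40 libraries of the shared tissues and no minimum difference, and it left out that libraries share an animal. Each gene had 1 estimate of the spread over all 10 tissues. An SE or p here thus does not measure the spread among the animals within spleen or ileum alone. With the animal as a random term (correlation 0.0384) the total of members called in each direction was the same in all but the last comparison below. There 8 rather than 7 members differed toward ileum. In spleen 7 of 96 members were higher in males, against 0.594% of 16503 genes, and 0 were higher in females (0.43%), with 5 so at an unadjusted p under 0.05 (limma). Of the 7, 3 were abundant and 4 were low members. Low members had to reach 1 FPKM in at least 2 of the 40 libraries to be tested. In spleen, 24 and 17 low members reached it in male A and male B, and 12 and 10 in the lactating and the dry cow. Nothing is thus read from the distance of the 7 to the share of all genes. In ileum 25 were higher in males, against 15.3% of all genes, and 6 in females, against 9.02%. Of the 25, 21 were abundant and 4 low, while all of the 6 but the fifth member were low ones. Low members at 1 FPKM or more in ileum numbered 13 in male A, 9 in male B, 4 in the lactating cow and 18 in the dry cow. The median male minus female difference was 0.25 in spleen and 0.21 in ileum, with 0.05 and 0.14 among all genes. The most abundant member led in ileum, with 2.84 ± 0.49 (SE, limma adjusted p = 1.20e-04), and in spleen it differed by 0.04 ± 0.49 (limma adjusted p = 1). The difference between the sexes was itself more positive in spleen for 8 of 96 members (5.79% of all genes) and in ileum for 7 (5.22%), shares near those of all genes. All of the 8 but the 64th member were low ones, while the 7 were all abundant ones.

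These counts moved with single animals, as did those over all genes. Without the lactating cow, whose ileum library had the lowest member sum, 1 member in spleen (0.208% of all genes) and 7 in ileum (3.77%) were higher in males and 10 in ileum were higher in females (2.75%). The 7 were all among the 25, and the ileum median became -0.03. Without male A, 1 member in spleen (0.422% of all genes) and 7 in ileum (4.66%) were higher in males. Without the dry cow the counts were 2 in spleen (0.232%) and 30 in ileum (22.6%), with 1 in ileum higher in females (9.8%).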

How the data were processed

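The authors deposited 1 table of FPKM for 24616 Ensembl identifiers, made on the assembly UMD3.1, and the tools named in the submitters' processing notes are STAR, Cufflinks and Trimmomatic 0.39. The gene annotation and settings are not given in the sources used here. Of 51 columns, 47 matched a sample. The other 4 were not used, of which 2 have Lym in their name but match no sample's title. The name of 1 of these holds the number of the lymphocyte animal, and whether it is a second run of that sample was not tested. Depth in fragments is unknown, so no counting interval was computed. The supplied RefSeq table (ARS-UCD2.0) holds no Ensembl identifiers: 0 were matched, and the marker and pathway lists fixed by symbol were not applied. With no names, members are given by rank, and 3 identifiers are printed: the most abundant, the one called higher in ileum, and one chosen after its values were seen; per contrast, the largest called differences are described.

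Label means were taken over libraries. Fits used limma 3.58.1 in R 4.3.3 on log2(FPKM + 1) with an intensity trend, leaving out genes that reached 1 FPKM in under 2 libraries. They were tested on simulated data with independent errors and, per gene, an equal spread in all tissues. That could not check the effect of shared animals or of a spread that differs between tissues. Tables used pandas 2.3.3 and numpy 2.4.6 in Python 3.11.15, and plots matplotlib 3.10.9. Same-numbered libraries come from the same animal: deviations of spleen and ileum correlated at 0.0706 to 0.261 across genes. The members and lists were chosen with earlier results of these data known.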

Additional observations from a re-analysis of the deposited data

Results flagged for a closer look

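In lung, the most abundant member, ENSBTAG00000001882, had 122.6 FPKM in the lactating cow and 32.04 to 34.7 FPKM in the other 3, a gap large for a group of 4. In spleen, ENSBTAG00000029982 had 9.85 FPKM in male B and 2.06 to 3.29 FPKM in the others. These were the 2 of 22 groups of 4 libraries checked that held such a library. The groups were the member sums in each of 10 tissues, and 4 single members in spleen, ileum and lung. These were the most abundant, the second, the seventh and the 40th. Chance flags about 1 group in 20, a rate that cannot be applied to the seventh and 40th, which were picked from these data. The male minus female difference itself differed between spleen and ileum in 15 members by limma: it was more positive in spleen for 8 (5.79% of all genes) and in ileum for 7 (5.22%), of 96 tested, which is near the shares of all genes. All of the 8 but the 64th member were low ones, while the 7 were all abundant ones. Without each animal in turn the 8 became 1 to 4 and the 7 became 0 to 12, and a pseudocount of 0.1 left 1 and 0.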

How the results depend on the processing

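The number of members followed the thresholds and the scaling. It was 287 at a ratio of 3, 25 at a ratio of 8, 227 from 0.1 FPKM, 86 from 5 FPKM, 62 with 1 FPKM added to each value, 40 against the highest single library and 292 after quantile normalization, which kept 136 of the 150. Without each animal in turn it lay between 136 and 175. Ileum came second for 5 members after quantile normalization and for 22 to 32 without each animal, spleen for 96 to 112, and lung for 7 after rescaling to the same sum, for 14 among the libraries with low traces (an alternative chosen after seeing the data) and for 2 to 7 without each animal.

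With the animal as a replicate block, in paired fits, 18 members were higher in spleen than in ileum and 1 lower, and 40 and 18 were above the other labels in spleen and ileum, so the block changed none of these counts. For the sex comparisons, blocks added after seeing the data gave 7 and 0 members in spleen and 25 and 6 in ileum (animal as a random term), and 8 and 7 (fixed block) or 8 and 8 (random term) for the difference between the tissues. Without each animal in turn, the calls were 15 to 19 and 0 to 1 for spleen minus ileum, 39 to 41 for spleen and 14 to 22 for ileum against the other labels. For males minus females in spleen they were 1 to 7 higher and 0 to 1 lower, and in ileum 7 to 30 higher and 1 to 10 lower. For the difference between these they were 1 to 4 higher and 0 to 12 lower. Quantile normalization gave 28 higher in spleen than in ileum, 9 in ileum against the other labels, 1 higher in males in spleen, 3 lower in ileum and 3 for the difference. A pseudocount of 0.1 gave 74 in spleen and 49 in ileum against the other labels, 0 higher in males in spleen, 2 lower in ileum, and 1 and 0 for the difference. No filter gave 1 lower in spleen. Without the 9 libraries of the lactating cow with low traces, also chosen after seeing the data, males were higher for 2 members in spleen (0.287% of all genes) and 9 in ileum (4.06%) and lower for 10 in ileum (3.14%), and the difference had 4 and 1 (1.04% and 0.854%). The cause of these shifts was not tested. The sex difference of the most abundant member in spleen turned to -0.06 without male B and -0.24 without the dry cow, in a range of -0.24 to 0.31 without each animal, and that of the second to -0.062 without male A, in a range of -0.062 to 0.13; none of these passed the test. Of the values of single members under all alternatives, 267 kept their direction and their side of the threshold, 46 lost their call, 7 gained one and 3 changed sign.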
